A study of Mus musculus with 19 samples.

Results

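The mRNAs of 43 respiratory chain assembly factors were followed in single *Upf2*-null and control mouse blastocysts. The 43 genes were listed by name and function and were matched by mouse symbol among the 41388 gene rows of the count table. They comprise 12 factors of complex I, 4 of complex II, 6 of complex III, 18 of complex IV and 3 of complex V, the ATP synthase. Of these, 42 had enough counts to be tested between the genotypes, among 17137 tested genes in all. The exception was *Sco2*.

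Assembly factors are nuclear-encoded proteins that build the complexes of the mitochondrial inner membrane but are not part of the finished complexes. They stabilise new subunits, insert cofactors such as heme A, copper, flavin and iron-sulfur clusters, and hold intermediates until the next module joins. In human patients, loss of many of them causes a deficiency of the complex concerned. UPF2 is a core factor of nonsense-mediated mRNA decay (NMD), which degrades transcripts whose stop codon is followed by a further exon-exon junction or lies in another aberrant context.

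The 19 embryos were whole blastocysts at E3.25 from crosses between heterozygous mice of a C57BL/6 background, and each embryo was 1 library. The 8 *Upf2*-null embryos (*Upf2*-/-) lacked exons 2 and 3 of *Upf2* on both alleles, and the 11 controls (*Upf2*+/+) were wild-type littermates. The deleted allele came from a floxed line crossed to mice with Cre under the *E2a* promoter, which is active in the early embryo, and a truncated protein without NMD activity can still be made from it. Per the labels, zygotes came from hormone-stimulated females and grew in culture to the blastocyst stage, and the genotype was read by PCR on the cDNA.

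Library totals ran from 4068350 to 5993745 counts in *Upf2*-null embryos and from 4056072 to 5854659 in controls. Control embryo 5 stood apart, with counts in 14522 genes, where every other embryo had counts in at least 15547. *Upf2* itself averaged 90.9 ± 21.3 CPM in *Upf2*-null embryos (counts scaled to a common library size, SD, n = 8), against 57.8 ± 16.5 CPM in controls (SD, n = 11). Reads from exons that the deletion leaves in place are included, so these values do not check the genotype. Markers of all 3 blastocyst lineages were present. The 5 epiblast markers summed to between 238 and 341 CPM in *Upf2*-null embryos and to between 341 and 540 CPM in controls. Trophectoderm markers summed to between 918 and 1445 CPM in *Upf2*-null embryos and between 747 and 1615 CPM in controls, and primitive endoderm markers to between 131 and 228 CPM against between 95.1 and 229 CPM. In whole embryos, a smaller share of cells of a lineage and less RNA per cell cannot be told apart, and the part of lineage make-up in the values below was not tested. Of 6 markers of cumulus and granulosa cells, 2 had no count in any embryo, and the 6 summed to at most 0.398 CPM in a *Upf2*-null embryo and 0.898 CPM in a control. Litter and batch are not given in the sources used here.

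Before the expression values, sequences at the start sites of the members are shown, because 3 transcription factors of nuclear-encoded mitochondrial genes have well-known short recognition sequences. Promoters from 250 bases before to 50 bases after the start, from RefSeq with build GRCm38.p6, were matched by symbol to 37 of the 43 members, which have 39 promoters among them. Both strands were searched for GCGCANGCG (NRF1), CCGGAAGT (GABPA) and AAGATGGCG (YY1). The NRF1 letters nearly repeat on the opposite strand, so matches on either strand can overlap, and matches of different factors did not overlap in any member. The sites below are a selection from the members with a match, read 5′ to 3′ on the strand of the gene, with the match in capitals and 10 bases on either side.
*Tmem126b*, YY1, chr7:90475960-90475988, minus strand: gtgaggcgctAAGATGGCGgcgtcccagc
*Atpaf2*, YY1, chr11:60417010-60417038, minus strand: tgtcatgaggAAGATGGCGgcgtgctgag
*Cox10*, YY1, chr11:64079433-64079461, minus strand: gcgggctagcAAGATGGCGgcgcccagga
*Sdhaf4*, NRF1, chr1:24005613-24005641, minus strand: caccttggtgCGCGTGCGCagacgctgtg
*Coa5*, NRF1, chr1:37430111-37430139, minus strand: acttccgccaCGCGTGCGCataccctgaa
*Ttc19*, NRF1, chr11:62281432-62281460, plus strand: atgcgtcatcGCGCATGCGgactggcggg
*Cox15*, GABPA, chr19:43752976-43753003, minus strand: gacgcctgacCCGGAAGTgcttgttctt
The YY1 sequence was present in 4 of the 39 member promoters (10.3%), against 1.4% of all 32851 promoters and 2.68% of the 14201 promoters of tested coding genes. The NRF1 sequence was present in 7 (17.9%, against 6.25% of all promoters and 1703 of the 14201) and the GABPA sequence in 6 (15.4%, against 3.89% of all promoters and 7.36% of those of tested coding genes). Besides those shown, NRF1 matches lay at *Ndufaf4*, *Ndufaf5*, *Sdhaf3* and *Uqcc2* and at a further position of *Sdhaf4*, GABPA matches at *Bcs1l*, *Cox10*, *Cox14*, *Cox16* and *Timmdc1*, and a YY1 match at *Ndufaf8*. These are matches of letters, not measured binding.

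Across the list, small positive differences outnumbered negative ones, and no member passed the test over all genes. Of the 42 tested members, 32 had a log2 fold change (*Upf2*-null over control, given below with its standard error, SE) above 0 and 10 below 0, where 47.7% of all tested genes were above 0. The median over the members was 0.13 on the log2 scale, against -0.02 over all tested genes. By edgeR's quasi-likelihood test at an adjusted p under 0.1, 0 members were called higher, with 0.175% of all tested genes called, and 0 lower, with 0.0175% called. At an unadjusted p under 0.05, 8 members were higher (5.15% of all tested genes were) and 1 was lower (7.38%). DESeq2 called 3 members higher (0.595% of all tested genes) and 0 lower (0.432%), namely *Sdhaf2*, *Smim20* and *Coa4*, and limma voom called *Sdhaf2* (0.525%) and 0 lower (0.14%). The study named those 3 genes from these same embryos, so their values are not independent evidence of a direction. They are among the 8 members above, and are part of the counts, medians and sums given here.

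**Figure D1:**
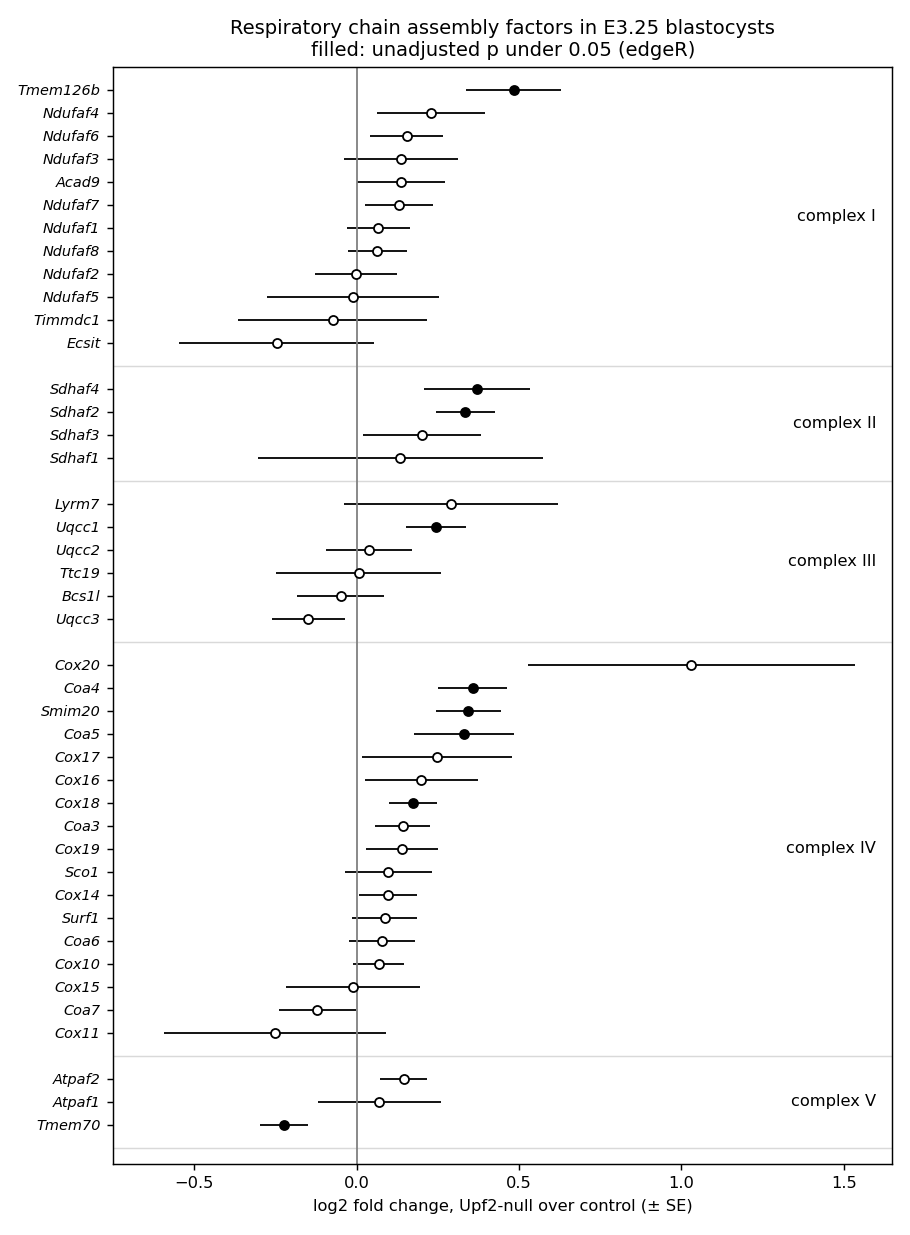
The log2 fold change (*Upf2*-null over control) of each of the 42 tested assembly factors is plotted with its standard error, grouped by complex and sorted by size, and filled points mark an unadjusted edgeR p under 0.05. Of the 9 filled points, 8 lie right of 0 and *Tmem70* of complex V lies left of it, while *Cox20*, at 1.03, has the widest error bar of all.

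Most members are well expressed, while many tested genes are not. Among the 9248 tested genes with at least 10 CPM on average over all 19 embryos, a limit chosen after seeing the data, 48.4% were above 0, and 31 of 41 members (75.6%) were. In that group, 8 members (19.5%) were higher at an unadjusted p under 0.05, against 4.51% of genes, and 1 (2.44%) was lower, against 4.48%. In 6 members every *Upf2*-null embryo lay above the control median (2.27% of all tested genes): *Sdhaf2*, *Uqcc1*, *Coa5*, *Smim20*, *Cox18* and *Cox20*. In 2 members every *Upf2*-null embryo lay below it (2.47%): *Coa7* and *Tmem70*. In 0 members were the genotypes fully separated (0.0875% of all tested genes in the higher and 0.00584% in the lower direction).

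Summed over all 43 genes, the assembly factors held 5050 ± 211 CPM in *Upf2*-null embryos (SD, n = 8), against 4648 ± 213 CPM in controls (SD, n = 11), a ratio of 1.09. The sum was above the control median of 4606 CPM in all 8 *Upf2*-null embryos, and control embryo 5, with 5210 CPM, was the control nearest to the highest *Upf2*-null value of 5278 CPM. The next highest control, embryo 2, had 4792 CPM, below every *Upf2*-null embryo but embryo 3, with 4692 CPM. By complex, the ratio was widest for complex II, with 330 ± 33.8 CPM in *Upf2*-null embryos (SD, n = 8), against 266 ± 29.9 CPM in controls (SD, n = 11), or 1.24. Complex IV factors summed to 2262 ± 82.1 CPM and 2065 ± 103 CPM (ratio 1.10), complex I factors to 1316 ± 110 CPM and 1207 ± 92.0 CPM (1.09), and complex III factors to 587 ± 33.2 CPM and 548 ± 47.0 CPM (1.07). Complex V factors had a ratio of 0.986, from 555 ± 41.5 CPM in *Upf2*-null embryos, against 562 ± 48.3 CPM in controls. A sum follows the genes with the most counts, so these ratios are descriptions of total mRNA and carry no test.

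**Figure D2:**
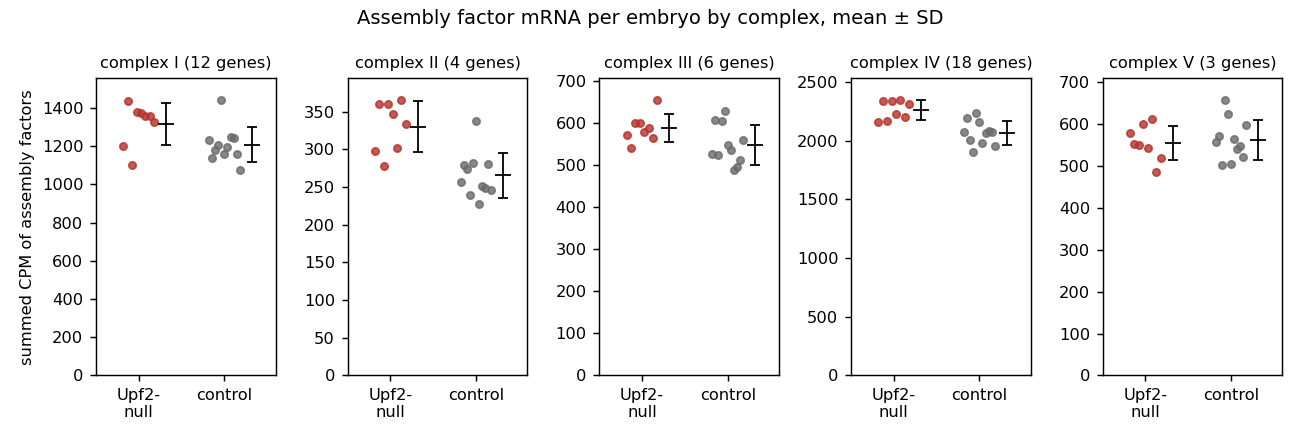
Each point is the summed CPM of the assembly factors of a complex in 1 embryo, with the *Upf2*-null embryos on the left of each panel, the controls on the right and the mean ± SD beside each group. The groups overlap in every panel. In complex I all *Upf2*-null embryos lie within the control range (1100 to 1438 CPM, against 1075 to 1439 CPM in controls). Control embryo 5 alone sets the upper end of that range, and the next control, embryo 8, had 1246 CPM. *Upf2*-null embryos other than 1 and 3 had at least 1327 CPM in complex I. Complex V runs from 485 to 612 CPM in *Upf2*-null embryos, against 503 to 656 CPM in controls.

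Complex I is built from modules that are assembled apart and then joined. Of its 12 factors, 8 had a log2 fold change above 0, with a median of 0.10, and only *Tmem126b* had an unadjusted p under 0.05. *Tmem126b* (chromosome 7, 90467438 to 90476001 of GRCm38) encodes a membrane protein of the mitochondrial complex I assembly complex, which builds the membrane arm. It had 85.7, 178, 86.6, 174, 166, 147, 146 and 138 CPM in *Upf2*-null embryos 1 to 8. The 11 controls ran from 74.0 CPM over a median of 97.3 CPM to 129 CPM. Thus 6 *Upf2*-null embryos were above every control, while *Upf2*-null embryos 1 and 3 lay within the control range. This gave a log2 fold change of 0.48 (SE 0.15, unadjusted p = 0.0033, adjusted p = 0.233 from edgeR), and a two-sided exact permutation test over the embryos gave p = 0.0106, unadjusted. Its YY1 match is shown above.

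The partners of TMEM126B in that complex had no unadjusted p under 0.05. *Acad9*, which encodes a member of the acyl-CoA dehydrogenase family, had 206 to 370 CPM (median 275) in *Upf2*-null embryos, against 179 to 351 CPM (median 239) in controls. *Acad9* had a log2 fold change of 0.14 (SE 0.14, unadjusted p = 0.324, adjusted p = 0.818 from edgeR). *Ndufaf1*, another partner, had a log2 fold change of 0.07, *Timmdc1* of -0.07 and *Ecsit*, which also acts in innate immune signalling, of -0.25. *Ecsit* varied widely, between 22.4 and 132 CPM in *Upf2*-null embryos and between 34.0 and 137 CPM in controls.

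The other complex I factors act on the peripheral arm. *Ndufaf3* and *Ndufaf4*, whose products act together on the early intermediate that holds the quinone-binding site, had log2 fold changes of 0.14 and 0.23. *Ndufaf5*, the product of which hydroxylates an arginine of NDUFS7, had -0.01, and *Ndufaf8*, its partner, 0.06. *Ndufaf7*, which encodes an arginine methyltransferase, had 0.13, *Ndufaf6* 0.15, and *Ndufaf2*, a factor of late assembly, -0.00. None of these had an unadjusted p under 0.05.

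Complex II, succinate dehydrogenase, has only nuclear-encoded subunits, and all 4 of its assembly factors had a log2 fold change above 0, with a median of 0.27. SDHAF2 is needed for the covalent attachment of flavin to SDHA. *Sdhaf2* (chromosome 19, 10500534 to 10526142) had 187, 196, 165, 156, 152, 158, 190 and 150 CPM in *Upf2*-null embryos 1 to 8. In controls it ran from 117 CPM over a median of 126 CPM to 181 CPM. All 8 *Upf2*-null embryos lay above 10 of the 11 controls, and control embryo 6, at 181 CPM, was the exception. The log2 fold change was 0.33 (SE 0.09, unadjusted p = 0.00138), with an adjusted p of 0.180 from edgeR, 0.0365 from DESeq2 and 0.0564 from limma voom. The exact permutation p was 0.00111, unadjusted. Without control embryo 6, edgeR also called it, with a log2 fold change of 0.38 and an adjusted p of 0.0642.

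SDHAF4 binds flavinated SDHA before it meets SDHB. *Sdhaf4* (chromosome 1, 23995939 to 24005656) had 57.8, 85.9, 65.0, 132, 109, 89.7, 104 and 110 CPM in *Upf2*-null embryos 1 to 8, against 50.5 to 97.0 CPM (median 75.1) in controls. Of the *Upf2*-null embryos, 4 were above every control, and embryos 1 and 3 were below the control median. Its log2 fold change was 0.37 (SE 0.16, unadjusted p = 0.0333, adjusted p = 0.331 from edgeR, exact permutation p = 0.0463 unadjusted), and the unadjusted p reached 0.0953 without *Upf2*-null embryo 4. *Sdhaf1* and *Sdhaf3*, whose products guide iron-sulfur clusters to SDHB, had log2 fold changes of 0.13 (SE 0.44) and 0.20 (SE 0.18). *Sdhaf1* was low, at 5.31 to 17.2 CPM in *Upf2*-null embryos, against 0.221 to 18.0 CPM in controls.

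In complex III, whose factors act from the first step to the last, the median log2 fold change over 6 genes was 0.02, with 1 unadjusted p under 0.05. UQCC1 binds newly made cytochrome b together with UQCC2. *Uqcc1* (chromosome 2, 155846894 to 155930310) had 298, 289, 330, 276, 238, 289, 280 and 265 CPM in *Upf2*-null embryos 1 to 8, against 190 to 297 CPM (median 232) in controls. Every *Upf2*-null embryo was above the control median, and 2 were above every control. For *Uqcc1* the log2 fold change was 0.24 (SE 0.09, unadjusted p = 0.0152, adjusted p = 0.265 from edgeR, exact permutation p = 0.0152 unadjusted). Its partners *Uqcc2* and *Uqcc3* had log2 fold changes of 0.04 and -0.15. *Bcs1l*, whose product moves the Rieske iron-sulfur protein into the complex, had -0.05, *Lyrm7*, a chaperone of that protein, 0.29 (SE 0.33), and *Ttc19*, which acts after its insertion, 0.01.

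Complex IV, cytochrome c oxidase, has the longest list of factors, since its catalytic core holds heme A and copper. Of 17 tested factors, 14 had a log2 fold change above 0, with a median of 0.14, and 4 had an unadjusted p under 0.05, all higher. These 4 were *Coa4*, *Smim20*, *Coa5* and *Cox18*.

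COA4 is a small protein of the intermembrane space with paired cysteine motifs. *Coa4* (chromosome 7, 100537071 to 100540369) had 100, 134, 119, 160, 145, 123, 152 and 160 CPM in *Upf2*-null embryos 1 to 8, against 88.8 to 136 CPM (median 101) in controls. Of the *Upf2*-null embryos, 4 were above every control, and embryo 1 was just under the control median. This gave a log2 fold change of 0.36 (SE 0.11, unadjusted p = 0.00291), with an adjusted p of 0.231 from edgeR, 0.0773 from DESeq2 and 0.109 from limma voom, and an exact permutation p of 0.00329, unadjusted.

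SMIM20 stabilises newly made COX1, the largest mitochondrially encoded subunit of complex IV. *Smim20* (chromosome 5, 53267083 to 53278540) had 136, 157, 134, 191, 170, 174, 181 and 171 CPM in *Upf2*-null embryos 1 to 8, against 105 to 177 CPM (median 122) in controls. All *Upf2*-null embryos lay above 8 of the 11 controls, and control embryo 6 was again the highest control. For *Smim20* the log2 fold change was 0.34 (SE 0.10, unadjusted p = 0.0024), with an adjusted p of 0.226 from edgeR, 0.0808 from DESeq2 and 0.157 from limma voom, and an exact permutation p of 0.00274, unadjusted. The other COX1 factors *Coa3* and *Cox14* had log2 fold changes of 0.14 and 0.10, and *Surf1*, mutated in human Leigh syndrome, 0.09.

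*Coa5* (chromosome 1, 37417084 to 37430103), a factor needed early in complex IV assembly, was the steadiest member in *Upf2*-null embryos, with 245, 214, 249, 225, 229, 230, 215 and 228 CPM, a coefficient of variation of 5.50%. Controls ran from 63.7 CPM over a median of 181 CPM to 250 CPM, and the lowest value belonged to control embryo 5. The log2 fold change was 0.33 (SE 0.15, unadjusted p = 0.0426, adjusted p = 0.371 from edgeR, exact permutation p = 0.00852 unadjusted). Without control embryo 5 the log2 fold change was 0.24, with an unadjusted p of 0.00621 and an adjusted p of 0.251. COX18 moves a part of COX2 across the inner membrane. *Cox18* (chromosome 5, 90214724 to 90224001) had 195 to 249 CPM (median 217) in *Upf2*-null embryos, against 166 to 230 CPM (median 186) in controls, with a log2 fold change of 0.17 (SE 0.07, unadjusted p = 0.0296, adjusted p = 0.320 from edgeR, exact permutation p = 0.0176 unadjusted).

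Among the other COX2 factors, *Cox20* had the largest log2 fold change of all members, 1.03, at a very low level. It had 0.963, 1.77, 1.39, 4.14, 2.76, 1.77, 2.39 and 1.66 CPM in *Upf2*-null embryos 1 to 8 and 0.442 to 2.56 CPM in controls, from 83 counts in 8 libraries and 55 counts in 11. The SE was 0.50 (unadjusted p = 0.0535, adjusted p = 0.412 from edgeR). Of its 883 bases of exon, 804 overlap *Hnrnpu* on the opposite strand, and the sources give no strand for the counting, so reads of the 2 genes cannot be told apart there. *Cox16* had a log2 fold change of 0.20.

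The heme A enzymes are encoded by *Cox10* and *Cox15*. *Cox10*, with YY1 and GABPA matches at its start, had a log2 fold change of 0.07 and the lowest coefficient of variation over controls of all members, 7.35%. *Cox15* had 115 to 348 CPM (median 229) in *Upf2*-null embryos, against 132 to 346 CPM (median 218) in controls. Its log2 fold change of -0.01 (SE 0.21, unadjusted p = 0.959, adjusted p = 0.997 from edgeR) turned positive in 7 of the 19 fits that left out an embryo.

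The copper factors gave values on both sides of 0. *Cox17*, which hands copper on in the intermembrane space, had a log2 fold change of 0.25 (SE 0.23), *Cox19* of 0.14, *Sco1* of 0.10, *Coa6* of 0.08 and *Cox11*, which serves the copper site of COX1, of -0.25 (SE 0.34). *Coa7* had a log2 fold change of -0.12, and although all 8 *Upf2*-null embryos lay below the control median of 177 CPM, its unadjusted p was 0.319. *Sco2* had 1 count in a single *Upf2*-null embryo and none in the other libraries.

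Complex V held the only member with an unadjusted p under 0.05 in the lower direction. TMEM70 helps to form the ring of c subunits of the ATP synthase. *Tmem70* (chromosome 1, 16665207 to 16678275) had 238, 209, 225, 246, 208, 232, 187 and 201 CPM in *Upf2*-null embryos 1 to 8, against 216 to 304 CPM (median 255) in controls. Each *Upf2*-null embryo was below the control median, 4 were below every control, and 6 controls were above every *Upf2*-null embryo. *Tmem70* had a log2 fold change of -0.22 (SE 0.07, unadjusted p = 0.00674, adjusted p = 0.262 from edgeR, exact permutation p = 0.00503 unadjusted).

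The factors of the catalytic head had values of the other sign. *Atpaf2*, whose product chaperones the alpha subunit, had 230 to 309 CPM (median 258) in *Upf2*-null embryos, against 206 to 280 CPM (median 237) in controls, with a log2 fold change of 0.15 (SE 0.07, unadjusted p = 0.0573, adjusted p = 0.429 from edgeR, exact permutation p = 0.0413 unadjusted). *Atpaf1*, whose product chaperones the beta subunit, had a log2 fold change of 0.07. Its spread was wider in *Upf2*-null embryos, at 32.9 to 112 CPM, than in controls, at 45.8 to 90.4 CPM.

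**Figure D3:**
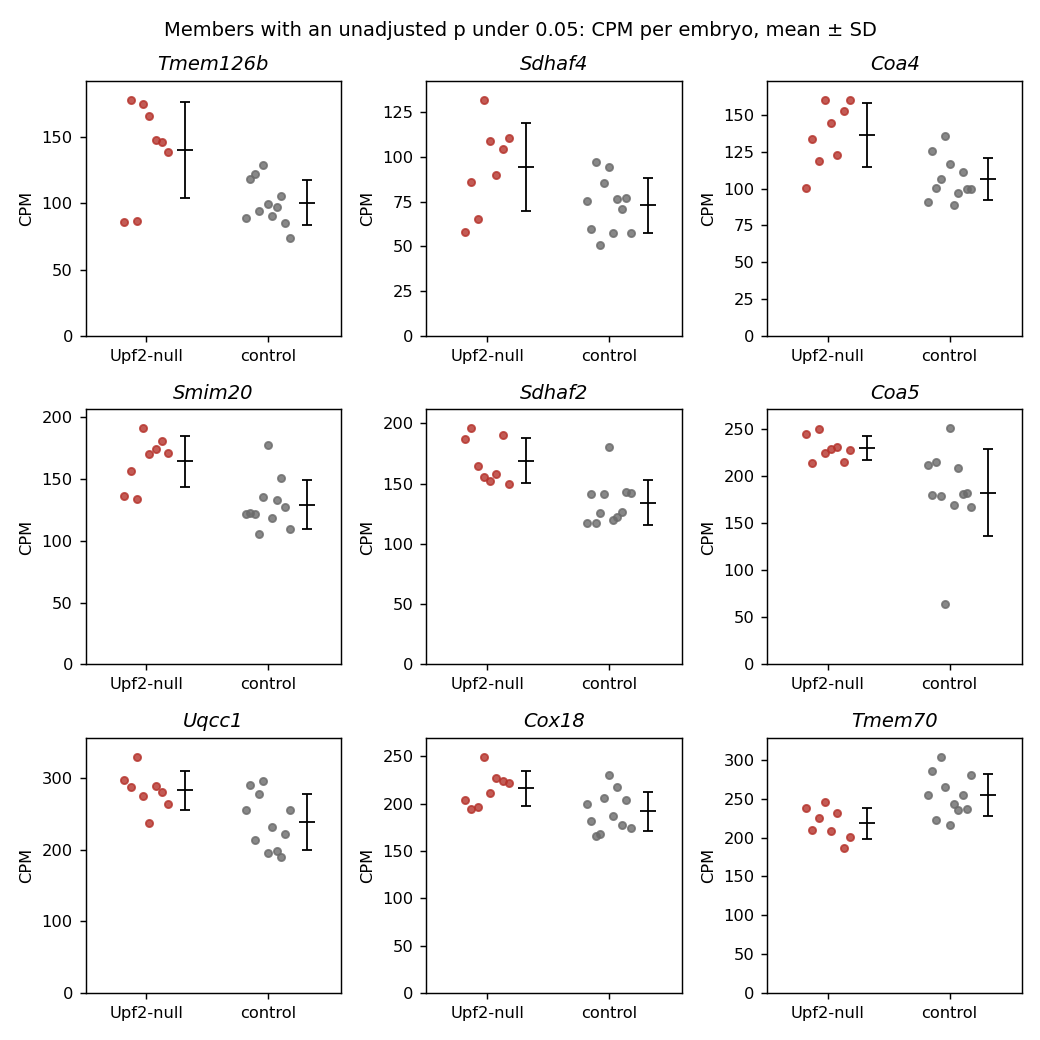
CPM is plotted for each embryo and for each of the 9 members with an unadjusted p under 0.05, with *Upf2*-null embryos on the left, controls on the right and the mean ± SD beside each group. In *Tmem126b*, 2 *Upf2*-null embryos fall among the controls and 6 above them, while in *Tmem70* 4 *Upf2*-null embryos lie below every control and the other 4 among the lower controls.

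*Upf2*-null embryos were not alike in this list. Embryo 3 was the lowest of its group in 15 of the 42 tested members and embryo 1 in 7. Together embryos 3 and 1 were the 2 lowest *Upf2*-null embryos in 15 members, among them *Tmem126b*, *Sdhaf4*, *Coa4* and *Smim20*. The same counts were not made over all tested genes, so they do not show a trait particular to this list. The complex I sums were 1202 CPM (embryo 1) and 1100 CPM (embryo 3), where the other *Upf2*-null embryos had at least 1327 CPM, and in complex III both were within the range of the rest of their group. Among controls, embryos 6 and 5 were most often highest, in 11 and 10 members.

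The level of a member was compared between genes as CPM per kilobase of annotated exon. This length joins the exons of all annotated transcripts of a gene, and was 723 bases for *Cox14* and 5773 for *Cox17*. The order of genes and the medians by complex therefore depend on the annotation as well as on the mRNA. Duplicate removal can also limit the counts of abundant genes, and its part in the order was not tested. In controls, *Cox14* was highest with 208 ± 26.5 CPM per kilobase (SD, n = 11), followed by *Coa3* with 191 ± 19.7 and *Tmem70* with 140, and the first pair differed by less than their spread. In *Upf2*-null embryos the same 3 genes had 223 ± 25.4, 210 ± 28.2 and 120 ± 11.0 CPM per kilobase (SD, n = 8). *Coa3* and *Cox14* thus had the highest CPM per kilobase of the members in either genotype, and both serve newly made COX1. The lowest tested members were *Cox20* with 2.38 CPM per kilobase in *Upf2*-null embryos and 1.15 in controls, *Cox17* with 3.22 and 2.71, and *Lyrm7* with 4.42 and 3.61. Median levels by complex in *Upf2*-null embryos and controls were 34.0 and 34.4 CPM per kilobase for complex I, 17.1 and 14.0 for complex II, 40.3 and 37.3 for complex III, 44.8 and 42.2 for complex IV, and 120 and 110 for complex V. The median coefficient of variation over embryos was 16.7% in *Upf2*-null embryos and 17.0% in controls.

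**Figure D4:**
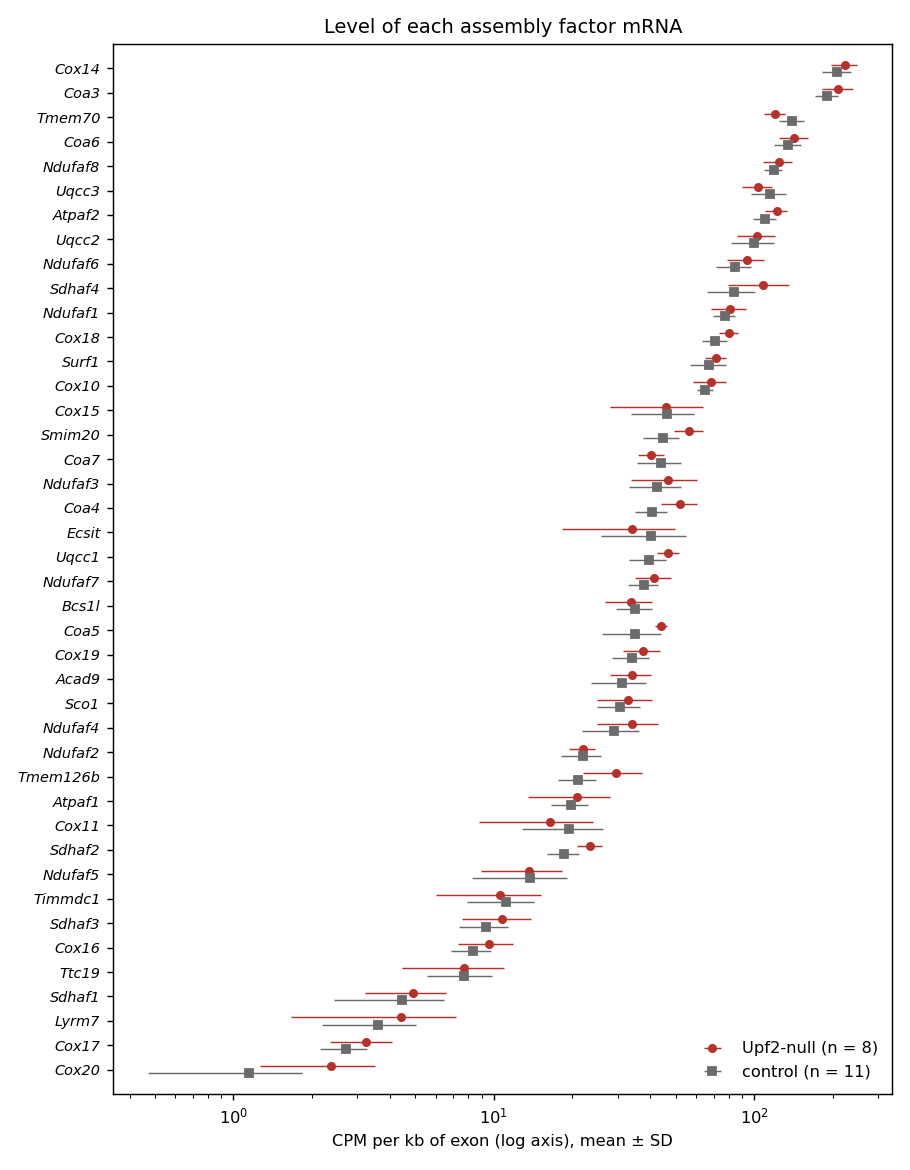
Mean CPM per kilobase of exon ± SD is shown on a log axis for the 42 tested members, with *Upf2*-null embryos in red and controls in grey, sorted by the control mean. Levels span from *Cox20* at 1.15 to *Cox14* at 208 CPM per kilobase in controls, and within nearly every member the error bars of the genotypes overlap.

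Whether members carry a feature by which NMD recognises its targets was read from the annotation (GENCODE M21, GRCm38). In 11 of 43 members (25.6%), at least 1 annotated transcript had an exon junction 50 bases or more downstream of its stop codon, against 27.2% of 14299 tested coding genes. These 11 were *Ndufaf2*, *Acad9*, *Sdhaf2*, *Uqcc1*, *Lyrm7*, *Smim20*, *Cox18*, *Cox19*, *Surf1*, *Atpaf1* and *Atpaf2*. Their median log2 fold change was 0.15, with 10 of 11 above 0 and 4 higher at an unadjusted p under 0.05. The 31 tested members without such a transcript had a median of 0.10, with 22 above 0 and 4 higher at an unadjusted p under 0.05, among them *Tmem126b* and *Coa4*. Over all tested coding genes with the feature, the median was -0.00, with 49.9% above 0 and 5.27% higher at an unadjusted p under 0.05, and without it -0.03, 46.4% and 4.75%. Gene counts pool all transcripts of a gene, so they do not show which transcript differed.

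Among the authors' merged transcript models, assembled over all embryos, 187 multi-exon transcripts that share an intron with 37 of the members were named by the assembly. They carry no name from the annotation, and their whole structures were not compared with it. Of these, 160, in 35 members, had an intron absent from GENCODE M21. Of all 187 transcripts, *Ndufaf2* and *Cox18* had the most, 14 each, and *Ndufaf7* and *Cox16* had 12 each. The models carry no value per embryo, so their use in either genotype was not compared.

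A head-to-head neighbour, a tested gene on the opposite strand that starts within 1000 bp upstream, was present for 11 of 43 members (25.6%), against 10.9% of tested coding genes. Of these neighbours, 10 had a log2 fold change above 0, several of them by less than its standard error. For 8 pairs it was larger in the neighbour than in the assembly factor. The widest gap was at *Ndufaf2*, which lies 108 bp from *Ercc8*, a gene of transcription-coupled DNA repair. *Ercc8* had 106 ± 22.9 CPM in *Upf2*-null embryos (SD, n = 8), against 52.9 ± 14.9 CPM in controls (SD, n = 11), and it rose, with a log2 fold change of 1.00 (SE 0.18, adjusted p = 0.0347 from edgeR). *Ndufaf2*, on the other side of the same short interval, had 65.6 ± 7.59 CPM in *Upf2*-null embryos, against 65.7 ± 11.5 CPM in controls. *Ttc19* and *Zswim7*, 98 bp apart, had log2 fold changes of 0.01 and 0.70 (SE 0.29, unadjusted p = 0.0271 for *Zswim7*, adjusted p = 0.310 from edgeR). *Sco1* had 0.10 and its neighbour *Adprm* 0.61 (SE 0.30, unadjusted p = 0.0505). At *Coa5* the order was the other way, with 0.33 for *Coa5* and 0.15 for *Unc50*. The difference within a pair was not tested.

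**Figure D5:**
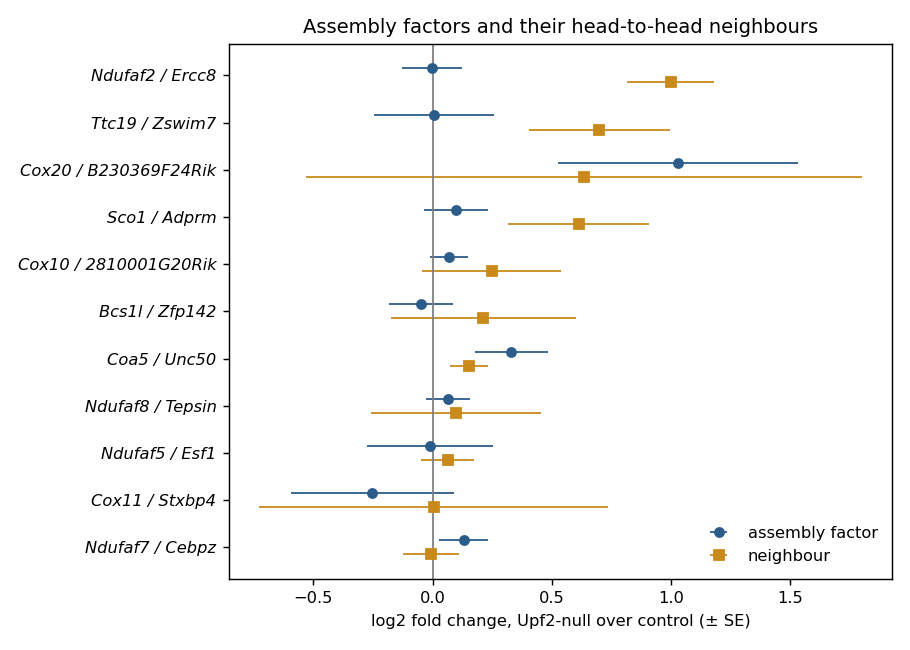
For each of the 11 pairs of an assembly factor and its head-to-head neighbour, log2 fold changes (*Upf2*-null over control) are plotted with their standard errors, the assembly factor as a circle and the neighbour as a square. *Ercc8* lies at 1.00 while *Ndufaf2* lies at 0. The neighbours *B230369F24Rik*, *Stxbp4*, *Tepsin*, *Zfp142*, *2810001G20Rik*, *Esf1* and *Cebpz* have standard errors larger than the size of their values.

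Exons shared with another tested gene limit some of the values. This held for 13 of 43 members (30.2%), against 19.8% of tested coding genes. The longest was 2130 of the 3751 exon bases of *Cox16*, with *Gm20498* on the same strand. *Sco2* followed with 1150 of 1253 bases, shared with *Tymp* on the same strand and *Ncaph2* on the opposite strand, and then *Cox20*. On the opposite strand, *Cox11* shared 688 bases with *Tom1l1*, *Ecsit* 598 with *Gm16845* and *Cox15* 449 with *Entpd7* and *Cutc*. *Sdhaf2* shares 94 of its 7195 exon bases with *Cpsf7*. *Coa4*, *Smim20*, *Tmem126b*, *Uqcc1*, *Coa5*, *Cox18*, *Sdhaf4* and *Tmem70* share none.

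The subunits that these factors assemble were read in the same fit. Of 75 nuclear-encoded subunits, 63 had a log2 fold change above 0, with a median of 0.08, where 47.7% of all tested genes were above 0. By edgeR 0 were called higher (0.175% of all tested genes were) and 0 lower (0.0175%). At an unadjusted p under 0.05 there were 2 higher (5.15%) and 0 lower (7.38%). The lowest p belonged to *Ndufb8* of complex I, with 256 ± 25.4 CPM in *Upf2*-null embryos (SD, n = 8), against 210 ± 37.0 CPM in controls (SD, n = 11) (log2 fold change 0.29, edgeR adjusted p = 0.262, DESeq2 adjusted p = 0.181), and limma voom called it, with an adjusted p of 0.0219. By complex, the medians of factors and subunits were 0.10 and 0.10 for complex I, 0.27 and 0.13 for complex II, 0.02 and 0.02 for complex III, 0.14 and 0.07 for complex IV, and 0.07 and 0.05 for complex V. Duplicate removal can limit the counts of abundant genes, and its part in these medians was not tested. Of 13 mitochondrially encoded subunits, 8 were tested, and 1 was above 0, with a median of -0.04. The lowest p among them was 0.634, of *mt-Co1*, unadjusted from edgeR. Mean levels in controls were very uneven, with 287 CPM for *mt-Co1*, 1.21 CPM for *mt-Nd3*, which was tested, and 0.151 CPM for *mt-Co2*, which was not. The part of alignment and duplicate removal in this was not tested, which limits a comparison with the nuclear-encoded subunits.

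Of 17 further genes with roles in assembly that are outside the list, 15 were tested. Of these, 14 had a log2 fold change above 0 (47.7% of all tested genes had), and the median over the 15 was 0.17. By edgeR 0 were called (0.175% of all tested genes were called higher and 0.0175% lower), and 2 were higher at an unadjusted p under 0.05 (5.15%). These were *Cmc2*, with 145 ± 20.7 CPM in *Upf2*-null embryos (SD, n = 8), against 123 ± 14.2 CPM in controls (SD, n = 11) (log2 fold change 0.23, adjusted p = 0.292 from edgeR), and *Cmc1*, with 55.3 ± 17.5 CPM and 41.4 ± 7.97 CPM (log2 fold change 0.42, adjusted p = 0.326 from edgeR). Both encode small proteins related to complex IV assembly.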

How the data were processed

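Whole blastocysts were sequenced as single-embryo libraries, made by the authors with the SMARTer Ultra Low Input v4 kit and Nextera XT and read in paired-end mode. Adapters were trimmed by the authors, reads were aligned by STAR 2.5.2a, PCR duplicates were taken out by SAMtools, and featureCounts gave the deposited counts for each Ensembl gene (GRCm38). Duplicate removal can limit the counts of abundant genes, and the highest count of any gene was 4884. Strand is not stated for the counts. A deposited table of scaled expression was not used here. Other positions, those of exons in the merged transcript models deposited by the authors (StringTie, mm10), were used without values.

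Symbols came from GENCODE M21, which gave 40254 of 41388 rows a symbol. The authors' filter of 10 or more counts in 1 or more embryos left 17137 genes, and all 42 tested members reached 10 counts in both genotypes. They were fitted with edgeR 4.0.16 (R 4.3.3, TMM factors, robust quasi-likelihood F-test). Adjusted p-values follow Benjamini and Hochberg over all tested genes, and the threshold was 0.1. This tool replaced the authors' DESeq2, which was run as an alternative (1.42.0), as was limma voom with quality weights (3.58.1). CPM values use TMM factors, log2 CPM a prior count of 2. Single genes were also compared by a two-sided exact permutation test over all 75582 arrangements of 8 among 19 embryos on log2 CPM, with no adjustment. Scripts were tested on simulated data. The embryos are separate animals.

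Full values are given for the 3 members the study names, members with an unadjusted p under 0.05 and the member with the highest CPM of each complex. *Cox20*, *Ercc8* and other neighbours were singled out after their values were seen. Members and lists were chosen with earlier results of these data known. Alternatives were other tools, factors and filters, a threshold of 0.05, the replicate number as a block, and leaving out each embryo.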

Additional observations from a re-analysis of the deposited data

How the results depend on the processing

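Counts were few for *Cox20* and *Sco2*, most of whose exon bases are shared with other genes, and the part of depth in this was not tested. No member was called lower by edgeR, DESeq2 or limma voom, in any of the 19 fits without an embryo, or under any other alternative. The number called higher was 3 with DESeq2 and 1 with limma voom, and from 0 to 1 when an embryo was left out, the 1 being *Sdhaf2* without control embryo 6. Members higher at an unadjusted p under 0.05 ranged from 5 (without *Upf2*-null embryo 4) to 9 when an embryo was left out, and were 6 without control embryos 2 and 4 together. *Tmem126b*, *Sdhaf2*, *Uqcc1*, *Coa4*, *Smim20* and *Tmem70* kept an unadjusted p under 0.05 in all 19 fits without an embryo, *Cox18* in 14, *Sdhaf4* in 11 and *Coa5* in 7. *Cox15* changed sign in 7 of these fits, with log2 fold changes between -0.13 and 0.08, namely 0.08 without *Upf2*-null embryo 4 or 7 (0.082 and 0.077), 0.022 without 5, 0.037 without 8, and 0.046, 0.060 and 0.0038 without control embryos 1, 5 and 9. The median over all members stayed between 0.09 and 0.15, and the median over all tested genes between -0.04 and -0.00. The medians of complexes III and V crossed 0 when an embryo was left out (-0.06 to 0.08 and -0.04 to 0.14). Samples with the same replicate number did not deviate together (correlations from -0.137 to 0.0687 over 8 pairs, 0 best with their own number). These correlations gave no sign of pairing by number, but cannot show whether equal numbers share a litter or batch. With the replicate block, 0 members were called and 4 were higher at an unadjusted p under 0.05. The cause of these changes was not tested.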
